A study of Homo sapiens with 11 samples.

Results

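The endoplasmic reticulum (ER) folding and degradation genes described here were 41 protein-coding genes chosen by name, of 58735 genes listed in the deposited tables. They were divided by role into 9 chaperones, 13 disulfide and proline isomerases, 14 genes of ER-associated degradation (ERAD) and 5 genes of the protein translocon. The cells were HEK293T, an embryonic human kidney line that carries the SV40 large T antigen, and their messenger RNA was sequenced in 11 libraries. Control cells, labelled as given a control siRNA, gave 3 libraries. The knockdowns were siNAE1 at 50 nM with 3 libraries, siUBE2M at 70 nM with 3 libraries and siURM1 at 60 nM with 2 libraries, each taken 48 h after transfection with an siRNA against the gene it is named for. All libraries are labelled as biological replicates. The study lists a single siRNA sequence per gene, so an effect of the sequence cannot be told apart from that of the gene. The methods of the study name a non-targeting siRNA as its negative control, at no stated dose. A supplementary legend of the study gives the control the code HKWT and does not say what the letters WT stand for. NAE1 is the regulatory subunit of the E1 enzyme that activates the ubiquitin-like protein NEDD8, UBE2M is an E2 enzyme of the same pathway, and URM1 is a ubiquitin-like protein and sulfur carrier. The study asked which genes respond when URM1 or these enzymes are depleted.

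Secretory and membrane proteins enter the ER through the SEC61 translocon, where they meet Hsp70 and Hsp90 family chaperones, the lectin chaperones calnexin and calreticulin, and protein disulfide isomerases that form and rearrange disulfide bonds. Proteins that do not fold are recognised, moved back to the cytosol and handed to the proteasome by ERAD, in which the AAA ATPase VCP supplies the pulling force. When unfolded proteins build up, the sensors IRE1 (ERN1), PERK (EIF2AK3) and ATF6 start the unfolded protein response, whose transcription factors XBP1, ATF4 and ATF6 are known to raise many chaperone and ERAD genes. Neddylation, the attachment of NEDD8, activates cullin-RING ubiquitin ligases in the cytosol and nucleus.

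Total counts per library ranged from 11733163 to 16321391, and the 41 members together took a small share of them. Their share was 0.730 ± 0.0081% (SD, n = 3) in control cells, 0.818 ± 0.0080% (n = 3) in siNAE1 cells, 0.646 ± 0.0057% (n = 3) in siUBE2M cells and 0.672 ± 0.0054% (n = 2) in siURM1 cells. Each targeted gene was lowest in its own group. Smaller log2 fold changes were seen in the other groups. NAE1 changed by 0.28 in siUBE2M and 0.38 in siURM1 cells, and UBE2M by -0.16 in siNAE1 and -0.37 in siURM1 cells. URM1 changed by 0.28 in siNAE1 and, without being called, by -0.16 in siUBE2M cells. NAE1 was at 98.9, 109 and 99.0 CPM, read counts scaled to library size, in control cells and at 41.6, 42.6 and 35.2 CPM in siNAE1 cells, a log2 fold change of -1.36 ± 0.08 (SE), adjusted p = 9.23e-16. UBE2M went from 263, 268 and 264 to 15.6, 15.6 and 19.1 CPM in siUBE2M cells (-3.98 ± 0.08 (SE), adjusted p = 1.43e-27), and URM1 from 54.4, 51.0 and 55.4 to 15.2 and 15.5 CPM in siURM1 cells (-1.80 ± 0.10 (SE), adjusted p = 2.59e-15). PAX2, VIM, NEFM, KRT8 and KRT18, reported in this line, averaged 5.35 CPM or more in every group, whereas markers of mature kidney, blood and liver were at or below 1.41 CPM, with UMOD, PTPRC, HBB and AFP at 0 in control cells. These 5 genes moved between groups, all being called higher in siURM1 cells. NEFM changed by 1.19 ± 0.07 and 1.19 ± 0.07 in siNAE1 and siURM1 cells, and in siUBE2M cells VIM changed by 0.95 ± 0.07 and PAX2 by -0.90 ± 0.15. The share of counts from mitochondrially encoded genes was 4.57 to 4.93% in control, 4.90 to 5.32% in siNAE1, 4.12 to 4.43% in siUBE2M and 5.29 to 5.72% in siURM1 cells. Their part in the results was not tested. In whole cultures, a lower level in every cell and a smaller share of cells that express a gene cannot be told apart.

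In control cells the members spanned a wide range of abundance. Levels between genes are given as FPKM, the scale corrected for gene length and library depth. The most abundant were the chaperones CANX at 165 ± 8.69 FPKM (SD, n = 3), HSPA5 at 156 ± 5.41, HSP90B1 at 146 ± 7.29 and CALR at 130.5 ± 3.34 FPKM. Neighbours in this order lay within their summed SDs, except that CALR was below the 3 others. SEC61A1, the pore subunit of the translocon, followed at 93.1 ± 0.338 FPKM and P4HB, the classical protein disulfide isomerase, at 89.8 ± 1.78 FPKM. VCP, at 47.6 ± 1.12 FPKM, was the most abundant ERAD gene. The lowest were the disulfide isomerase TXNDC5 at 1.06 ± 0.175 FPKM and the derlin DERL3 at 0.769 ± 0.186 FPKM. Both low genes share exonic bases with other genes in GENCODE v44 (60.9% of TXNDC5 with a readthrough transcript on the same strand, 77% of DERL3 with a gene on the opposite strand). Reads of TXNDC5 and the readthrough transcript may be split, and the sources used here do not say whether the counting used the strand, which bears on DERL3, so the counts of both are uncertain.

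**Figure D1:**
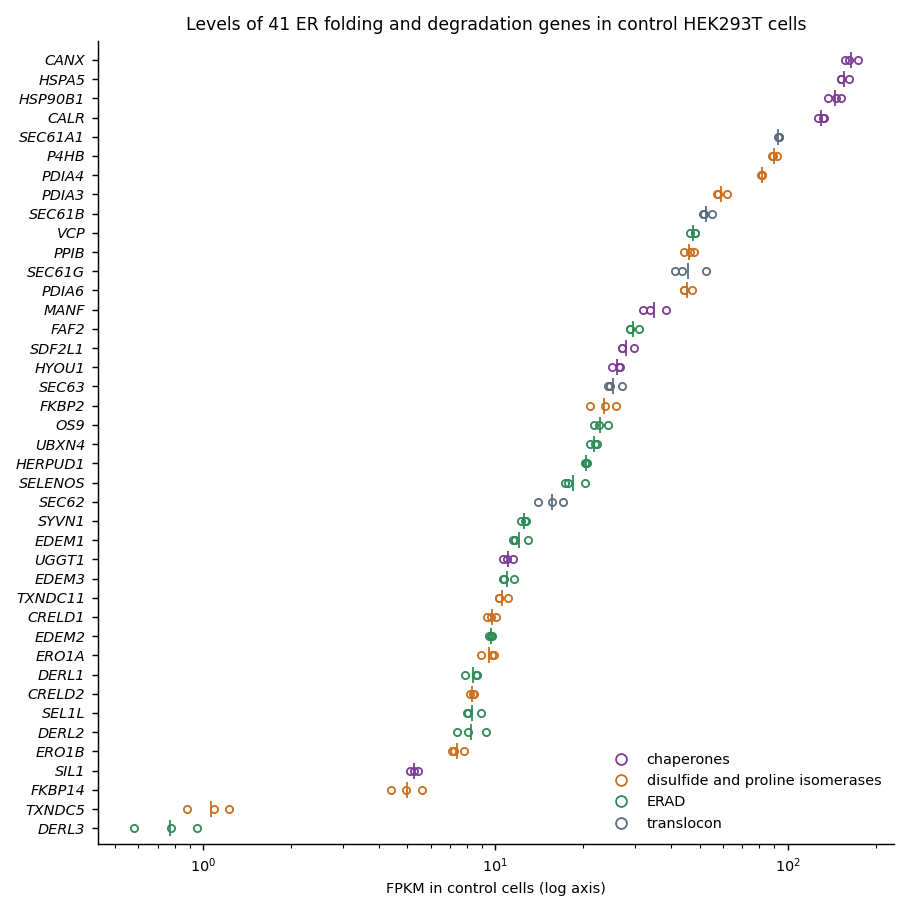
Level of each of the 41 genes in the 3 control libraries, as FPKM on a log axis, ordered by the mean (vertical tick) and coloured by role; open circles are single libraries. CANX, HSPA5, HSP90B1 and CALR stand at the top between 130.5 and 165 FPKM, and TXNDC5 and DERL3 at the bottom near 1 FPKM.

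All 41 members passed the filter on low counts and were tested among 18368 genes. A gene was called at an adjusted p under 0.05, and called a DEG where its log2 fold change was also at least 1 in size. Values after ± are SDs for levels and standard errors for log2 fold changes, and a gene is said to rise or fall where it was called. In siNAE1 cells 21 members were called higher and 8 lower than in control cells, beside 27.6% of all genes tested called higher and 27.1% called lower. The members called higher were 51.2% of the 41. In siUBE2M cells the balance was the other way, with 8 members higher (19.5% of the members, beside 22.7% of all genes) and 19 lower (46.3%, beside 22.6%). In siURM1 cells 9 were higher (22.0%, beside 20.8%) and 13 lower (31.7%, beside 20.8%). The members are all protein-coding, and such genes were called more often than all genes tested. Over protein-coding genes only, 61.5%, 53% and 49.2% were called in siNAE1, siUBE2M and siURM1 cells, in place of 54.7%, 45.3% and 41.6%. In siURM1 cells 3547 of 14025 protein-coding genes were lower. None of the members was a DEG in any of the 3 comparisons by edgeR, where 13.9%, 7.11% and 7.62% of all genes tested were. Every called change of a member against control was thus smaller than 1 on the log2 scale. The 3 comparisons share the same control libraries. Without control replicate 3 the members called lower in siURM1 cells were 8, and without siURM1 replicate 2 they were 7. Lower calls over all genes went from 3822 to 3274 and 2885 at the same time. Where libraries were scaled by their totals alone, the median of all genes moved to -0.13, -0.05 and -0.11 in siNAE1, siUBE2M and siURM1 cells. Genes called higher then made up 38.3%, 41.8% and 38.5% of all called genes in place of 50.5%, 50.1% and 50.0%.

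**Figure D2:**
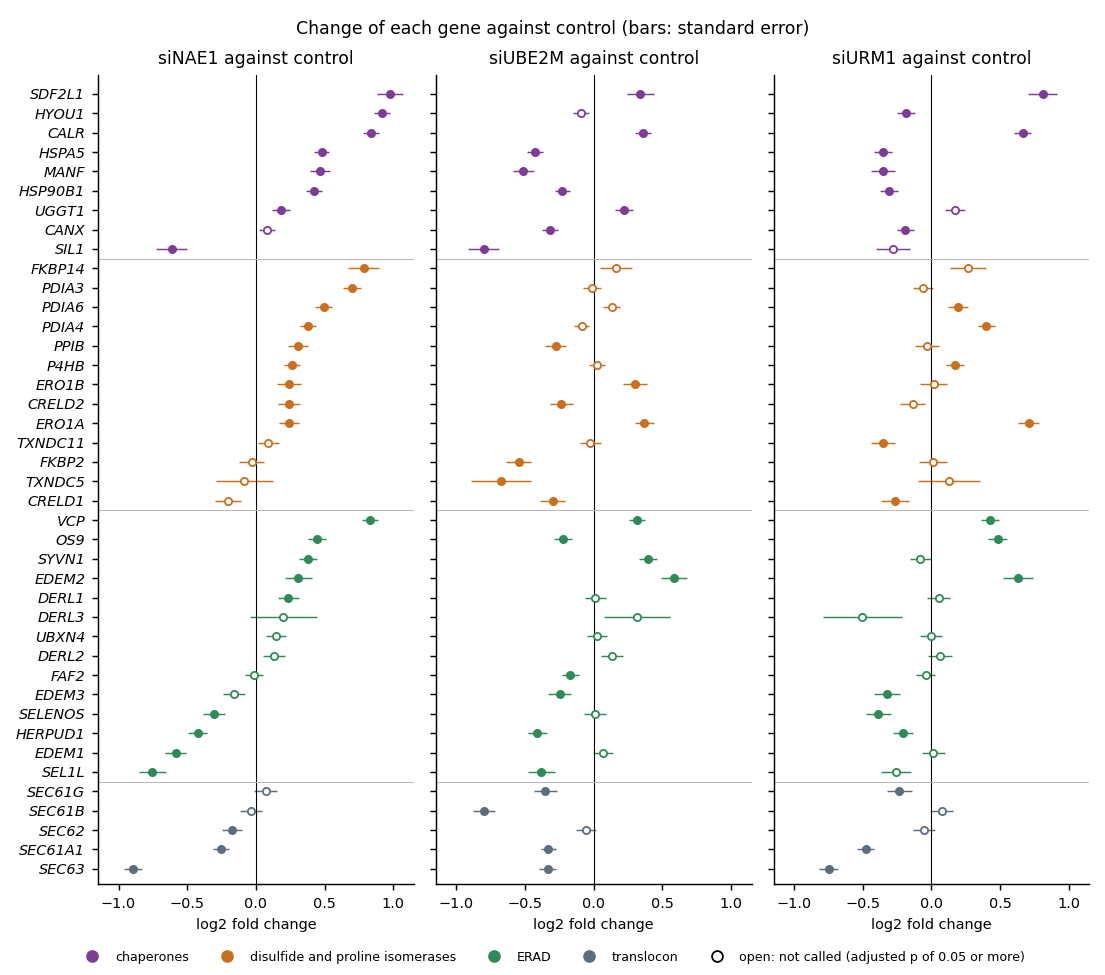
Log2 fold change of each of the 41 genes against control in siNAE1, siUBE2M and siURM1 cells, with standard errors as bars, grouped and coloured by role; filled points were called (edgeR, adjusted p under 0.05). In siNAE1 cells most chaperones and isomerases lie right of 0, in siUBE2M and siURM1 cells the points fall on both sides, and no called translocon gene lies right of 0 in any panel.

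By role, the chaperones had the highest median in siNAE1 cells and were among the lowest in the other knockdowns. In siNAE1 cells their median log2 fold change was 0.47, against a median of -0.0021 over all genes tested, with 7 of 9 called higher and 1 lower. It was -0.23 in siUBE2M cells (3 higher, 5 lower) and -0.19 in siURM1 cells (2 higher, 5 lower). The disulfide and proline isomerases had a median of 0.24 in siNAE1 cells, with 9 of 13 called higher and none lower, and medians near 0 in siUBE2M cells (-0.02, 2 higher and 5 lower) and siURM1 cells (0.01, 4 higher and 2 lower). The ERAD genes had a median of 0.14 in siNAE1 cells (5 of 14 higher, 4 lower), 0.02 in siUBE2M cells (3 higher, 5 lower) and -0.02 in siURM1 cells (3 higher, 3 lower). Of the 5 translocon genes none was called higher in any knockdown, and 3, 4 and 3 were called lower, with medians of -0.18, -0.33 and -0.23. Of all genes tested 27.6%, 22.7% and 20.8% were called higher and 27.1%, 22.6% and 20.8% lower in siNAE1, siUBE2M and siURM1 cells, and the ERAD shares in siURM1 cells were close to these. Medians over all genes tested were 0.0075 in siUBE2M and -0.02 in siURM1 cells.

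The order of the roles could be read in single libraries. The median log2 difference of the chaperones from the control mean was 0.37, 0.54 and 0.44 in the 3 siNAE1 libraries, -0.23, -0.27 and -0.18 in the siUBE2M libraries, and -0.15 and -0.23 in the siURM1 libraries, while the control libraries lay between -0.04 and 0.02. The siNAE1 libraries thus stood above all others and the siUBE2M and siURM1 libraries overlapped each other below the control. For the ERAD genes the medians were 0.16, 0.10 and 0.0049 in the siNAE1 libraries, which overlapped the control range of -0.03 to 0.02. The SD of these medians, pooled over the replicates of the 4 groups, was 0.059 for chaperones, 0.052 for isomerases, 0.046 for ERAD and 0.056 for translocon genes. Scaling by library totals alone turned the ERAD median in siUBE2M cells to -0.04 and the isomerase median in siURM1 cells to -0.08.

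**Figure D3:**
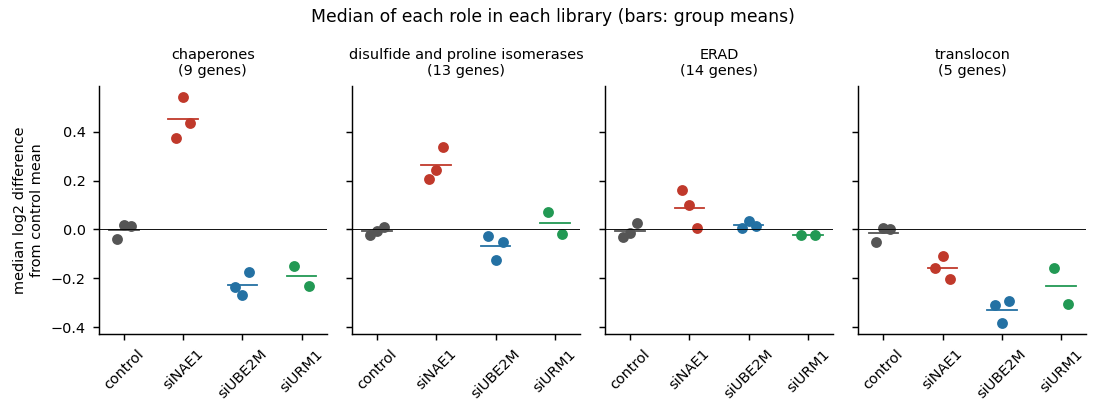
Median over the genes of each role of the log2 difference from the control mean, 1 point per library, with a bar at each group mean. The chaperone medians of the siNAE1 libraries (0.37 to 0.54) lie above all other libraries, and the translocon medians of every knockdown library lie below 0.

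HSPA5 (BiP, chr9:125234853-125241330, minus strand of GRCh38), the Hsp70 of the ER lumen and the regulator of the stress sensors, moved in opposite directions. It was at 604, 636 and 602 CPM in control cells and at 808, 894 and 864 CPM in siNAE1 cells. The siUBE2M libraries were at 456, 439 and 476 CPM and the siURM1 libraries at 484 and 478 CPM. All siNAE1 libraries were above, and all siUBE2M and siURM1 libraries below, the 3 control libraries. The log2 fold change was 0.48 ± 0.06 (SE), adjusted p = 1.4e-08 in siNAE1 cells, -0.43 ± 0.06 (SE), adjusted p = 2.43e-07 in siUBE2M cells and -0.35 ± 0.06 (SE), adjusted p = 3.69e-05 in siURM1 cells. HSP90B1 (GRP94), the Hsp90 of the ER, was likewise higher in siNAE1 and lower in siUBE2M and siURM1 cells, with no overlap between any knockdown and the control. It was at 656, 718 and 696 CPM in control and 892, 958 and 925 CPM in siNAE1 cells, and at 586, 572 and 610.4 CPM in siUBE2M and 531 and 584.5 CPM in siURM1 cells. Its log2 fold changes were 0.42 ± 0.06, -0.23 ± 0.06 and -0.31 ± 0.07. MANF, a small ER protein that binds HSPA5, was at 77.35, 92.0 and 81.3 CPM in control and 108, 126 and 113 CPM in siNAE1 cells. Below both lay the siUBE2M libraries at 59.6, 56.1 and 60.1 CPM and the siURM1 libraries at 64.8 and 65.9 CPM. It changed by 0.47 ± 0.07 (SE), adjusted p = 2.51e-06 in siNAE1, -0.51 ± 0.08 (SE), adjusted p = 1.52e-06 in siUBE2M and -0.35 ± 0.08 (SE), adjusted p = 0.00103 in siURM1 cells.

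HYOU1 (GRP170, chr11:119044189-119057202, minus strand of GRCh38), a large Hsp70 relative that exchanges the nucleotide on HSPA5, rose in siNAE1 cells from 207, 193 and 206.5 to 375, 381 and 391 CPM, a log2 fold change of 0.92 ± 0.06 (SE), adjusted p = 1.05e-14. It was at 185.5, 194 and 189 CPM in siUBE2M cells, overlapping the control (-0.09 ± 0.06 (SE), adjusted p = 0.199), and at 183 and 172 CPM in siURM1 cells (-0.19 ± 0.07 (SE), adjusted p = 0.0208). The siURM1 call was lost without siURM1 replicate 2 (-0.14, adjusted p = 0.227) or control replicate 1 or 3 (-0.16, adjusted p = 0.0864 and 0.0855) and with no low-count filter (-0.18, adjusted p = 0.0512), and HYOU1 was called lower in siUBE2M cells under scaling by totals (-0.15, adjusted p = 0.0285). SIL1, the other nucleotide exchange factor of HSPA5, went the other way in siNAE1 cells, so that the 2 exchange factors diverged. It was at 21.5, 20.5 and 22.0 CPM in control cells and 13.0, 14.75 and 14.1 CPM in siNAE1 cells (-0.61 ± 0.11 (SE), adjusted p = 2.8e-05). In siUBE2M and siURM1 cells it was at 11.0, 13.3 and 12.4 CPM (-0.80 ± 0.11 (SE), adjusted p = 7.11e-07) and 19.2 and 15.9 CPM (-0.28 ± 0.12 (SE), adjusted p = 0.0683). SIL1 was the only chaperone called lower in siNAE1 cells. It was called lower in siURM1 cells too without siURM1 replicate 1 (-0.42, adjusted p = 0.0428), under scaling by totals (-0.37, adjusted p = 0.0161) or with a minimum of 10 counts in each library (-0.30, adjusted p = 0.0417).

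CALR and SDF2L1 rose in all 3 knockdowns. CALR (chr19:12938578-12944489, plus strand of GRCh38), the soluble lectin chaperone that stores calcium, was at 363, 362 and 347 CPM in control and 612, 654 and 654 CPM in siNAE1 cells. The siUBE2M libraries were at 457, 441.5 and 477 CPM and the siURM1 libraries at 591 and 541.5 CPM, so every knockdown library was above the control. Its log2 fold changes were 0.84 ± 0.06, 0.36 ± 0.06 and 0.66 ± 0.06. SDF2L1 (chr22:21642261-21644298, plus strand of GRCh38), a partner of the HSPA5 cycle in the ER lumen, was at 30.3, 33.0 and 30.1 CPM in control and 54.85, 59.9 and 69.25 CPM in siNAE1 cells, and at 35.4, 36.3 and 46.6 CPM in siUBE2M and 53.6 and 55.7 CPM in siURM1 cells. The changes of SDF2L1 were 0.98 ± 0.10 (SE), adjusted p = 3.26e-10, 0.34 ± 0.10 (SE), adjusted p = 0.00513 and 0.81 ± 0.11 (SE), adjusted p = 1.87e-07. Its siUBE2M call rested on replicate 3, at 46.6 CPM, without which the change was 0.20 with an adjusted p of 0.0898. CANX, the membrane-bound counterpart of CALR, was called lower in siUBE2M (-0.32 ± 0.06 (SE), adjusted p = 2.04e-05) and siURM1 cells (-0.19 ± 0.06 (SE), adjusted p = 0.0149) and overlapped the control in siNAE1 cells (0.08 ± 0.06 (SE), adjusted p = 0.228). The siURM1 call was lost without control replicate 3 (-0.14, adjusted p = 0.137), siURM1 replicate 1 (-0.20, adjusted p = 0.0581) or siURM1 replicate 2 (-0.17, adjusted p = 0.102). UGGT1, the folding sensor that re-glucosylates misfolded glycoproteins, rose in siNAE1 (0.19 ± 0.07 (SE), adjusted p = 0.0166) and siUBE2M cells (0.22 ± 0.06 (SE), adjusted p = 0.0059). The siNAE1 call did not hold without control replicate 1 (0.16, adjusted p = 0.0727) or siNAE1 replicate 1 (0.12, adjusted p = 0.138), nor where libraries were scaled by totals alone (0.06, adjusted p = 0.448).

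**Figure D4:**
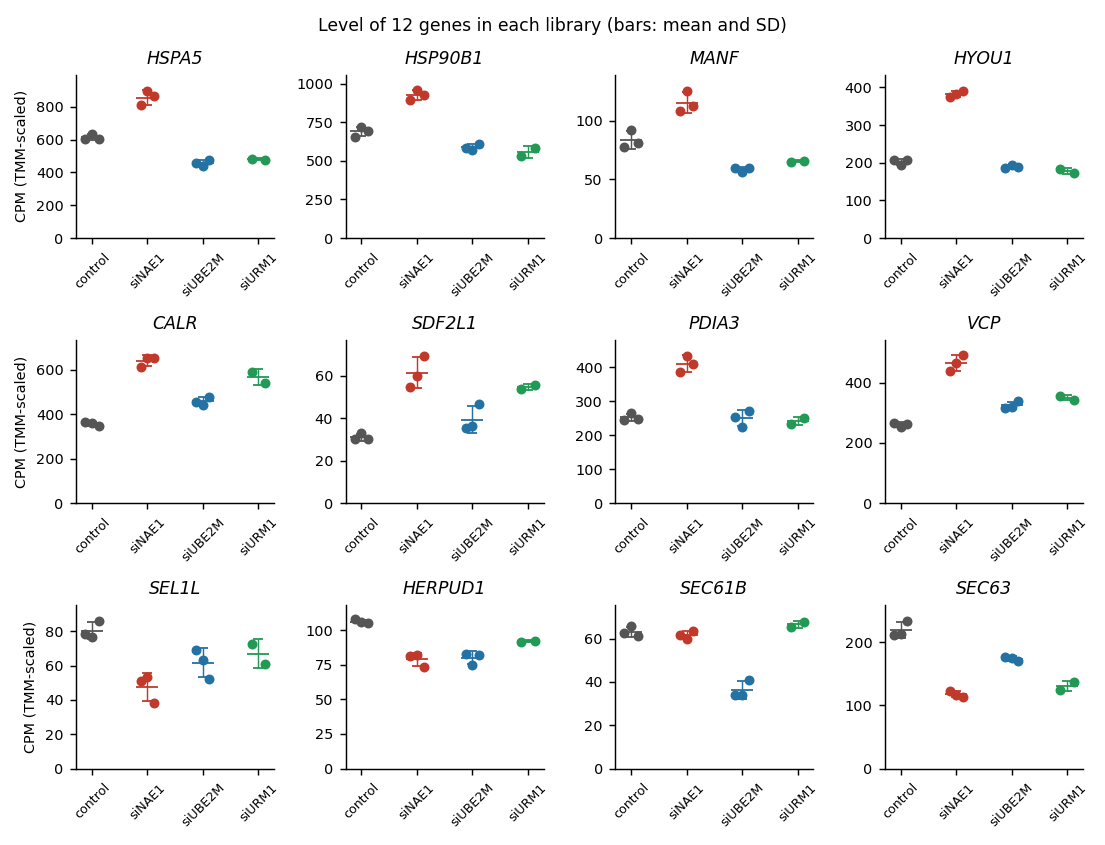
Level of 12 of the genes in each library, as TMM-scaled CPM from 0, with the group mean and SD as bars (n = 3, 3, 3 and 2). HSPA5, HSP90B1 and MANF are above the control in siNAE1 and below it in siUBE2M and siURM1 cells, CALR, SDF2L1 and VCP are above it in all 3 knockdowns, SEC61B is low in siUBE2M cells, and SEC63 is below the control in all 3.

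Promoter sequences were searched because several members that moved in opposite directions are textbook targets of the same elements. ERSE, the ER stress response element, has the letters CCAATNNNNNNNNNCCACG, and ERSE-II the letters ATTGGNCCACG. Both strands of the RefSeq windows (GRCh38.p14, from 250 bases before to 50 bases after each listed gene start, of which some genes have several) were searched, and 37 of the 41 members had a window. An ERSE was found in 7 members (CALR, CANX, CRELD2, ERO1B, HSP90B1, HSPA5 and PDIA6), which is 18.9% of the members against 0.0916% of all 27305 genes with a window. An ERSE-II was found in 3 members (HERPUD1, HYOU1 and SDF2L1), 8.11% against 0.0696%. As several members are textbook targets of these elements, these shares describe the list and are no test of it. DERL1, DERL3, FKBP14 and PDIA3 had no entry. The sites shown are all ERSE and ERSE-II matches of the chaperones and those of HERPUD1 and XBP1, with the fixed letters of the motif in capitals and 5 bases on either side, each read along the strand that carries the motif. The CANX site lies in 3 overlapping windows, whose starts are inside the span that the deposited tables give for CANX. Both HSP90B1 sites likewise lie inside the span given for HSP90B1.
HSPA5, ERSE, chr9:125241386-125241414, minus strand: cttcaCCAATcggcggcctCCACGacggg
HSP90B1, ERSE, chr12:103930211-103930239, plus strand: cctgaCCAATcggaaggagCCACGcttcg
HSP90B1, ERSE, chr12:103930316-103930344, minus strand: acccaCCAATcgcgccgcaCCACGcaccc
CANX, ERSE, chr5:179698773-179698801, plus strand: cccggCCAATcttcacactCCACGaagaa
CALR, ERSE, chr19:12938379-12938407, minus strand: accgaCCAATgatggtcgaCCACGcgtgg
XBP1, ERSE, chr22:28800598-28800626, minus strand: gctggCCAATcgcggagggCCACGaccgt
HYOU1, ERSE-II, chr11:119057269-119057289, plus strand: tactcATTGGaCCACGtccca
HYOU1, ERSE-II, chr11:119057375-119057395, plus strand: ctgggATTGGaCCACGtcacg
SDF2L1, ERSE-II, chr22:21642109-21642129, minus strand: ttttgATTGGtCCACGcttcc
HERPUD1, ERSE-II, chr16:56932020-56932040, plus strand: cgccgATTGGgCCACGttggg

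Of the 7 members with an ERSE, 6 were called higher in siNAE1 cells and CANX was not called. In siUBE2M cells CALR and ERO1B were higher and CANX, CRELD2, HSP90B1 and HSPA5 lower, and in siURM1 cells CALR and PDIA6 were higher and CANX, HSP90B1 and HSPA5 lower. With both elements counted, 8 of the 10 members with an ERSE or ERSE-II were called higher in siNAE1 cells (median log2 fold change 0.45) and HERPUD1 was called lower, while of the 27 members with a window and neither element 10 were higher and 7 lower (median 0.07). In siUBE2M cells 3 of the 10 were higher and 5 lower (median -0.16), beside 5 and 14 of the 27 (median -0.17). In siURM1 cells 3 were higher and 5 lower (median -0.16), beside 6 and 8 (median -0.03). Of the 10 members, CALR, CANX, HSP90B1, HSPA5, HYOU1 and SDF2L1 are chaperones, and no translocon gene is among them. The median over all chaperones in siNAE1 cells was 0.47. Element and role therefore cannot be told apart here. Over all genes tested the called shares were 27.6%, 22.7% and 20.8% higher and 27.1%, 22.6% and 20.8% lower in siNAE1, siUBE2M and siURM1 cells. XBP1 itself, which has an ERSE and is not a member, was lower in all 3 knockdowns. The ATF6 site TGACGTGG was found in 5 members (HYOU1, SEC62, TXNDC11, TXNDC5 and VCP), 13.5% against 0.927% of all genes with a window; in HYOU1 it overlaps the ERSE-II farther from the gene start. The share with an ATF6 site likewise describes the list and is no test of it. A match of letters is a description of the window and not a measured binding site.

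Among the disulfide and proline isomerases, 9 of 13 rose in siNAE1 cells and the other 4 were not called. PDIA3 (ERp57), the isomerase that works with the lectin chaperones on glycoproteins, was at 246, 265 and 247 CPM in control cells and 384.5, 434 and 410.2 CPM in siNAE1 cells (0.70 ± 0.07 (SE), adjusted p = 1.15e-10). It was at 255, 225 and 272 CPM in siUBE2M and 234 and 249.5 CPM in siURM1 cells, both overlapping the control (-0.01 ± 0.07 and -0.06 ± 0.07). PDIA3 has 2 listed pseudogenes, the larger at a mean of 185 counts against 4199 for PDIA3. FKBP14, a proline isomerase that acts on collagen, was at 23.8, 26.4 and 30.2 CPM in control cells, and 46.7, 52.9 and 38.4 CPM in siNAE1 cells (0.79 ± 0.11 (SE), adjusted p = 6.25e-07). Levels were 31.4, 32.6 and 25.7 CPM in siUBE2M (0.16 ± 0.12 (SE), adjusted p = 0.277) and 28.0 and 36.6 CPM in siURM1 cells (0.27 ± 0.13 (SE), adjusted p = 0.0966). Only its siNAE1 libraries stood clear of the control, and FKBP14 was called higher in siURM1 cells without control replicate 3 (0.37, adjusted p = 0.0354) or siURM1 replicate 1 (0.45, adjusted p = 0.0209).

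PDIA4 (ERp72) rose in siNAE1 and siURM1 cells, and ERO1A rose in all 3 knockdowns. PDIA4 was at 271, 268.5 and 269 CPM in control and 342, 358 and 352 CPM in siNAE1 cells, and at 247, 247 and 266 CPM in siUBE2M and 358 and 353 CPM in siURM1 cells. It rose by 0.38 ± 0.06 (SE), adjusted p = 7.4e-07 in siNAE1 and 0.40 ± 0.06 (SE), adjusted p = 3.53e-06 in siURM1 cells and was not called in siUBE2M cells (-0.09 ± 0.06 (SE), adjusted p = 0.206). Under scaling by totals PDIA4 was called lower there (-0.15, adjusted p = 0.0203). ERO1A, the oxidase that passes electrons from protein disulfide isomerase to oxygen, was at 68.3, 75.0 and 74.1 CPM in control and 89.6, 88.2 and 78.6 CPM in siNAE1 cells. It was at 97.9, 91.4 and 91.3 CPM in siUBE2M and 116 and 120.3 CPM in siURM1 cells. Every knockdown library was above the control and the siURM1 libraries were highest. The log2 fold changes of ERO1A were 0.24 ± 0.07, 0.37 ± 0.07 and 0.71 ± 0.08, the change in siNAE1 cells being lost where libraries were scaled by totals alone (0.12, adjusted p = 0.169). ERO1B, its paralogue, rose in siUBE2M cells (0.30 ± 0.09 (SE), adjusted p = 0.00442) and in siNAE1 cells (0.24 ± 0.09 (SE), adjusted p = 0.0176). Its siNAE1 call was lost under scaling by totals (0.12, adjusted p = 0.27) and without siNAE1 replicate 1 (0.15, adjusted p = 0.18), control replicate 1 (0.22, adjusted p = 0.0632) or control replicate 2 (0.23, adjusted p = 0.0564).

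The isomerases that fell did so mainly in siUBE2M cells, where 5 of 13 were lower. FKBP2, a small proline isomerase of the ER lumen, was at 38.7, 41.8 and 34.3 CPM in control and 34.6, 37.3 and 40.55 CPM in siNAE1 cells, and at 25.85, 26.6 and 26.05 CPM in siUBE2M and 40.8 and 36.2 CPM in siURM1 cells. The siUBE2M libraries lay below all others (-0.55 ± 0.09 (SE), adjusted p = 1.14e-05), whereas the changes in siNAE1 (-0.03 ± 0.09) and siURM1 cells (0.01 ± 0.10) were not called. In GENCODE v44, 71% of the exonic bases of FKBP2 are shared with another gene model on the same strand. TXNDC5 was at 4.83, 3.87 and 5.43 CPM in control and 3.31, 3.15 and 2.39 CPM in siUBE2M cells (-0.67 ± 0.22 (SE), adjusted p = 0.0114). This call was lost without control replicate 3 (-0.55, adjusted p = 0.0693) or siUBE2M replicate 3 (-0.54, adjusted p = 0.0663). It was at 4.92, 4.195 and 4.22 CPM in siNAE1 (-0.08 ± 0.21) and 5.68 and 4.57 CPM in siURM1 cells (0.13 ± 0.23). PPIB (cyclophilin B) rose in siNAE1 (0.31 ± 0.08 (SE), adjusted p = 0.00093) and fell in siUBE2M cells (-0.28 ± 0.08 (SE), adjusted p = 0.00372), and CRELD2, a secreted ER stress protein with isomerase activity, did the same (0.24 ± 0.08 and -0.23 ± 0.08). The siUBE2M calls were lost without siUBE2M replicate 1, at -0.20 (adjusted p = 0.0583) for PPIB and -0.17 (adjusted p = 0.147) for CRELD2. The siNAE1 call of CRELD2 was lost without siNAE1 replicate 3 (0.18, adjusted p = 0.0928) or under scaling by totals (0.12, adjusted p = 0.232). Its siUBE2M call was also lost without control replicate 2 (-0.22, adjusted p = 0.0665), control replicate 3 (-0.22, adjusted p = 0.0599) or siUBE2M replicate 2 (-0.24, adjusted p = 0.0501). Of the remaining isomerases, PDIA6 and P4HB rose in siNAE1 (0.49 ± 0.06 and 0.26 ± 0.06) and, by less, in siURM1 cells (0.19 ± 0.07 and 0.17 ± 0.06). The siURM1 calls were lost under scaling by totals (0.10 and 0.08, adjusted p = 0.232 and 0.285) and without siURM1 replicate 1 (0.12 and 0.11, adjusted p = 0.333 and 0.331). That of PDIA6 was also lost without control replicate 1 or 2 (both 0.19, adjusted p = 0.0696 and 0.0652). That of P4HB was lost without control replicate 1 or 3 (0.18 and 0.17, adjusted p = 0.06 and 0.08) and with a minimum of 10 counts in each library (adjusted p = 0.0624). TXNDC11, which works with EDEM proteins, fell in siURM1 cells (-0.35 ± 0.09). CRELD1 fell in siUBE2M cells (-0.30 ± 0.09, but -0.23 with an adjusted p of 0.0732 without siUBE2M replicate 1). It was called lower in siURM1 cells (-0.26 ± 0.10), a call lost by DESeq2 (-0.26, adjusted p = 0.0638), with a replicate block (-0.26, adjusted p = 0.054), with no low-count filter (-0.26, adjusted p = 0.0758) and without any control or siURM1 library (adjusted p from 0.0521 without control replicate 3 to 0.249 without siURM1 replicate 2).

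The ERAD genes moved in both directions. VCP (chr9:35056064-35073249, minus strand of GRCh38), the ATPase that extracts substrates from the ER membrane, was at 266, 253 and 264 CPM in control cells and rose to 438.5, 465 and 489.6 CPM in siNAE1, 317, 320.2 and 339 CPM in siUBE2M and 357 and 344 CPM in siURM1 cells, with no overlap with the control. The log2 fold changes were 0.83 ± 0.06, 0.32 ± 0.06 and 0.42 ± 0.06. SEL1L (chr14:81471549-81533861, minus strand of GRCh38), the scaffold of the HRD1 ligase complex, was at 78.4, 76.7 and 86.0 CPM in control cells, and 50.9, 53.35 and 38.1 CPM in siNAE1 cells (-0.75 ± 0.10 (SE), adjusted p = 1.36e-07). It was at 69.2, 63.5 and 52.5 CPM in siUBE2M (-0.38 ± 0.10 (SE), adjusted p = 0.00191) and 72.9 and 61.0 CPM in siURM1 cells (-0.26 ± 0.11 (SE), adjusted p = 0.0544). The siURM1 change of SEL1L was called without siURM1 replicate 1 (-0.39, adjusted p = 0.0285), siNAE1 replicate 3 or siUBE2M replicate 3 (both -0.26, adjusted p = 0.0244 and 0.0294), and under scaling by totals (-0.35, adjusted p = 0.0157). It was also called with no low-count filter, a minimum of 10 counts in each library, 2 groups per fit or a replicate block (adjusted p = 0.0201, 0.0336, 0.0147 and 0.011). SYVN1, which encodes the HRD1 ligase that SEL1L stabilises, rose in siNAE1 (0.38 ± 0.07) and siUBE2M cells (0.40 ± 0.07), in which SEL1L fell. HERPUD1, which joins the same complex at the membrane, was at 108, 106 and 105 CPM in control and 81.2, 82.4 and 73.7 CPM in siNAE1 cells. It was at 83.0, 74.7 and 82.3 CPM in siUBE2M and 91.7 and 92.4 CPM in siURM1 cells, below the control in every knockdown library. Its changes were -0.42 ± 0.07, -0.41 ± 0.07 and -0.21 ± 0.08. The siURM1 call was lost when any control or siURM1 library was left out, with adjusted p from 0.0567 (without control replicate 3) to 0.137 (without siURM1 replicate 1), while the log2 fold change stayed between -0.19 and -0.21. It was also lost with no low-count filter (-0.20, adjusted p = 0.0615).

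The mannosidase-like EDEM genes, which mark misfolded glycoproteins for removal, did not move together. EDEM2 was at 18.8, 18.8 and 18.4 CPM in control and 23.6, 22.0 and 24.0 CPM in siNAE1 cells, and at 27.3, 27.15 and 29.6 CPM in siUBE2M and 31.4 and 26.4 CPM in siURM1 cells. All knockdown libraries were above the control (0.31 ± 0.10, 0.58 ± 0.10 and 0.63 ± 0.11). The siNAE1 call of EDEM2 was lost under scaling by totals (0.18, adjusted p = 0.118). EDEM1 fell in siNAE1 cells (-0.58 ± 0.08) and was not called in siUBE2M (0.07 ± 0.07) or siURM1 cells (0.01 ± 0.08). EDEM3 fell in siUBE2M (-0.25 ± 0.08) and siURM1 cells (-0.32 ± 0.09). These calls were lost without siUBE2M replicate 3 (-0.15, adjusted p = 0.136) or control replicate 3 (-0.20, adjusted p = 0.0818) for siUBE2M and without siURM1 replicate 2 (-0.30, adjusted p = 0.0561) for siURM1. OS9, a lectin that delivers glycoproteins to SEL1L, was at 128, 117 and 113 CPM in control cells, and 153, 164 and 169.9 CPM in siNAE1 cells (0.44 ± 0.06 (SE), adjusted p = 4.78e-07). It was at 101, 103 and 103 CPM in siUBE2M (-0.22 ± 0.06 (SE), adjusted p = 0.00553) and 167 and 166 CPM in siURM1 cells (0.48 ± 0.07 (SE), adjusted p = 1.26e-06). It was therefore higher in siNAE1 and siURM1 and lower in siUBE2M cells. Without control replicate 1 the siUBE2M change was -0.16 with an adjusted p of 0.0681. DERL3 was at 2.23, 3.63 and 2.97 CPM in control, 4.07, 3.01 and 3.05 CPM in siNAE1, 3.61, 4.00 and 3.37 CPM in siUBE2M and 2.00 and 2.15 CPM in siURM1 cells. It was not called against control in any knockdown, nor were DERL2 and UBXN4. Of the remaining ERAD genes, SELENOS fell in siNAE1 (-0.31 ± 0.08) and siURM1 cells (-0.39 ± 0.09, but -0.24 with an adjusted p of 0.101 without siURM1 replicate 1). DERL1 rose in siNAE1 cells (0.24 ± 0.07, but 0.11 with an adjusted p of 0.203 under scaling by totals). FAF2 fell in siUBE2M cells (-0.17 ± 0.06, adjusted p = 0.0307). That call was lost without siUBE2M replicate 2 (-0.11, adjusted p = 0.243), control replicate 3 (-0.13, adjusted p = 0.168) or control replicate 1 or 2 (-0.18, adjusted p = 0.0573 and 0.051), and with no low-count filter (-0.16, adjusted p = 0.0536).

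The translocon genes were at or below the control wherever they were called. SEC63 (chr6:107867756-107958189, minus strand of GRCh38), the membrane J-protein that brings HSPA5 to the pore, was at 211, 213 and 234 CPM in control and 123.5, 117 and 113 CPM in siNAE1 cells. It was at 177, 176 and 169.7 CPM in siUBE2M and 124.5 and 136.5 CPM in siURM1 cells. The siNAE1 libraries were lowest and no knockdown overlapped the control. Its log2 fold changes were -0.89 ± 0.06 (SE), adjusted p = 2.24e-13, -0.33 ± 0.06 (SE), adjusted p = 4.88e-05 and -0.75 ± 0.07 (SE), adjusted p = 4.13e-10. SEC61A1 was at 444.5, 437 and 442 CPM in control cells and fell to 351, 376 and 383 CPM in siNAE1 (-0.25 ± 0.06), 355, 338 and 359.9 CPM in siUBE2M (-0.33 ± 0.06) and 316.5 and 316 CPM in siURM1 cells (-0.48 ± 0.06).

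SEC61B (chr9:99222064-99230615, plus strand of GRCh38), the small beta subunit of the pore, fell in siUBE2M cells alone among the comparisons with control. It was at 62.4, 65.8 and 61.5 CPM in control and 61.6, 59.9 and 63.5 CPM in siNAE1 cells, and at 33.95, 34.2 and 41.1 CPM in siUBE2M and 65.5 and 67.7 CPM in siURM1 cells. The siUBE2M libraries lay far below the 8 others (-0.80 ± 0.08 (SE), adjusted p = 9.69e-10), which overlapped or adjoined each other (-0.04 ± 0.08 (SE), adjusted p = 0.716 in siNAE1 and 0.07 ± 0.09 (SE), adjusted p = 0.519 in siURM1 cells). SEC61G, the gamma subunit, fell in siUBE2M cells as well (-0.35 ± 0.08 (SE), adjusted p = 0.00091). In siURM1 cells SEC61G changed by -0.23 ± 0.09 (adjusted p = 0.0463). This call was lost by DESeq2 (-0.23, adjusted p = 0.0779), with a replicate block (-0.22, adjusted p = 0.0697) and without siURM1 replicate 1 or 2 (-0.31 and -0.16, adjusted p = 0.0508 and 0.348), control replicate 2 (-0.11, adjusted p = 0.376) and other single libraries. SEC62, which acts beside SEC63, fell in siNAE1 cells by 0.18 ± 0.07 (adjusted p = 0.0387) although its libraries overlapped the control. This call was lost without control replicate 3 (-0.10, adjusted p = 0.283), siNAE1 replicate 3 (-0.14, adjusted p = 0.148), control replicate 2 (-0.17, adjusted p = 0.077) or siNAE1 replicate 1 (-0.18, adjusted p = 0.0644).

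Across the 3 knockdowns, CALR, EDEM2, ERO1A, SDF2L1 and VCP were called higher in all (12.2% of the members, beside 9.30% of all genes tested), and HERPUD1, SEC61A1 and SEC63 were called lower in all (7.32%, beside 9.62%). Neither share was far from that of all genes. Higher in siNAE1 and lower in siUBE2M cells were 6 members, CRELD2, HSP90B1, HSPA5, MANF, OS9 and PPIB, which is 14.6% of the members beside 1.97% of all genes tested. This joint count was made after the values had been seen. HSP90B1, HSPA5 and MANF were also lower in siURM1 cells, whereas OS9 was higher there. Leaving out single libraries gave 4 to 6 such members. The libraries of a knockdown did not overlap those of the control in 20 members above and 9 below in siNAE1 cells (beside 59.5% of all genes in either direction), 8 above and 20 below in siUBE2M cells (53.7%) and 11 above and 18 below in siURM1 cells (60.8%).

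The direct comparison of siNAE1 with siUBE2M cells, knockdowns of enzymes of the same pathway, gave 21 members higher in siNAE1 (beside 22.7% of all genes tested) and 5 lower (21.6%), with 7 of 9 chaperones and 9 of 13 isomerases higher and none of either lower. HYOU1, MANF and HSPA5 differed most. HYOU1 differed by 1.01 ± 0.06 (SE), adjusted p = 4.61e-15 on the log2 scale and was the only member to reach 1 (7.84% of all genes did), MANF by 0.98 ± 0.08 (SE), adjusted p = 4.37e-12 and HSPA5 by 0.90 ± 0.06 (SE), adjusted p = 4.37e-14. Which members reached 1 depended on the libraries and the settings. MANF also reached it without siNAE1 replicate 1 or 3 (1.03 and 1.01), whereas HYOU1 was at 0.991 without siUBE2M replicate 1, at 0.94 under scaling by totals, at 0.993 with a minimum of 10 counts in each library and at 0.997 with 2 groups per fit. SEC61B and PDIA3 were also higher in siNAE1 cells (0.76 ± 0.08 and 0.71 ± 0.07). The 5 members lower in siNAE1 than in siUBE2M cells were EDEM1 (-0.65 ± 0.08), SEC63 (-0.56 ± 0.06), SEL1L (-0.37 ± 0.10), SELENOS (-0.31 ± 0.08) and EDEM2 (-0.28 ± 0.10). They are 4 ERAD genes and SEC63. Of the 14 ERAD genes 3 were higher instead, OS9 (0.67), VCP (0.51) and DERL1 (0.22), and the ERAD median was -0.0078. The DERL1 call was lost under scaling by totals (0.16, adjusted p = 0.0901). It was also lost without siNAE1 replicate 1 (0.19, adjusted p = 0.0704) or siUBE2M replicate 1 (0.20, adjusted p = 0.066). The calls of SEL1L (-0.23, adjusted p = 0.0579 without siNAE1 replicate 3) and EDEM2 (-0.24, adjusted p = 0.0883 without siNAE1 replicate 2, and -0.23, adjusted p = 0.0834 without siUBE2M replicate 3) each rested on single libraries.

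**Figure D5:**
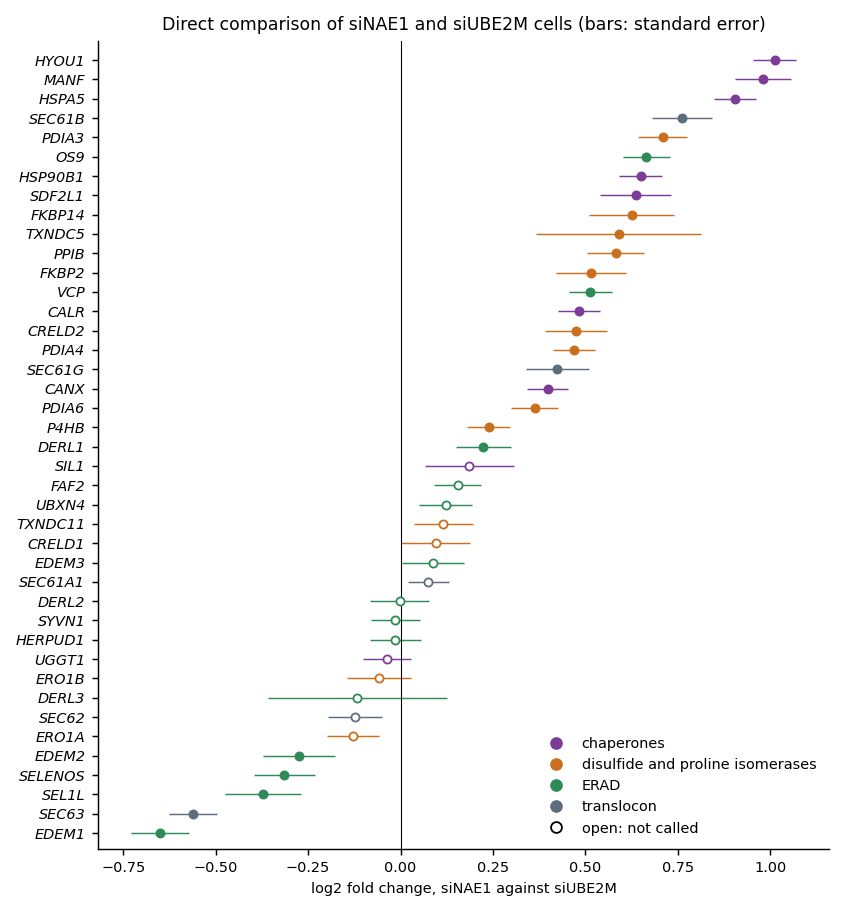
Log2 fold change of the 41 genes in siNAE1 against siUBE2M cells, with standard errors as bars, ordered by value and coloured by role; filled points were called (edgeR, adjusted p under 0.05). Chaperones lead the right side, with HYOU1 at 1.01, and EDEM1, SEC63 and SEL1L lie furthest to the left.

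Against siURM1 cells, siNAE1 cells had 16 members higher (beside 19.5% of all genes tested) and 6 lower (19.1%), and HYOU1 (1.11 ± 0.07 (SE), adjusted p = 1.42e-14), HSPA5 (0.83 ± 0.06 (SE), adjusted p = 8.28e-12) and MANF (0.82 ± 0.09 (SE), adjusted p = 3.25e-09) again differed most. HYOU1 was the only DEG among the members (6.76% of all genes). EDEM1 (-0.60), SEL1L (-0.49) and ERO1A (-0.47 ± 0.08) were lower in siNAE1 than in siURM1 cells, the largest such differences. Of the 14 ERAD genes 4 were lower and 2 higher. Between siUBE2M and siURM1 cells, 6 members were higher in siUBE2M (16.7% of all genes) and 11 lower (18.3%), led by SEC61B (-0.87 ± 0.09 (SE), adjusted p = 2.28e-09), DERL3 (0.82 ± 0.29 (SE), adjusted p = 0.0243) and TXNDC5 (-0.80 ± 0.24 (SE), adjusted p = 0.00874). OS9 and PDIA4 were lower in siUBE2M cells as well (-0.70 ± 0.07 and -0.49 ± 0.06). Leaving out a siURM1 library leaves that group with 1, which is assumed to vary like the other groups. Without siURM1 replicate 1 the members lower in siNAE1 than in siURM1 cells were 3, while calls over all genes in that comparison went from 38.6% to 27.2%. Between siUBE2M and siURM1 cells 2 members were then higher and 7 lower, while calls over all genes went from 35% to 23.8% (24.6% without replicate 2). Without siURM1 replicate 1, DERL3 at 0.77 (adjusted p = 0.135) and TXNDC5 at -0.63 (adjusted p = 0.129) were no longer called. The DERL3 call was also lost by DESeq2 (0.82, adjusted p = 0.0546), without siUBE2M replicate 2 (0.75, adjusted p = 0.074) and without siURM1 replicate 2 (0.87, adjusted p = 0.0826).

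The regulators of the unfolded protein response, which are not members, mostly fell. The 14 listed included proteases and other regulators beside sensors and transcription factors. In each knockdown 9 of the 14 were lower, and 2, 3 and 2 were higher, with median log2 fold changes of -0.42, -0.37 and -0.55. Of all genes tested 27.1%, 22.6% and 20.8% were lower and 27.6%, 22.7% and 20.8% higher. XBP1 was at 485, 498 and 508 CPM in control and 185, 189 and 185 CPM in siNAE1 cells, and at 203, 201 and 221 CPM in siUBE2M and 172 and 178 CPM in siURM1 cells. Its log2 fold changes were -1.42 ± 0.06, -1.26 ± 0.06 and -1.50 ± 0.07. The counts per gene do not separate its spliced and unspliced forms. ERN1, whose nuclease splices XBP1, fell in all 3 (-0.80 ± 0.09, -0.62 ± 0.09 and -0.66 ± 0.10). ATF6 fell from 89.2, 88.25 and 94.2 CPM in control cells to 32.6 and 30.4 CPM in siURM1 cells (-1.52 ± 0.09) and less in siNAE1 (-0.43 ± 0.07) and siUBE2M cells (-0.23 ± 0.07). The siUBE2M call was lost without control replicate 3 (-0.20, adjusted p = 0.0503). EIF2AK3 was called lower in siURM1 cells (-0.38 ± 0.12), not without control replicate 3 (-0.31, adjusted p = 0.0564) or siURM1 replicate 2 (-0.34, adjusted p = 0.0914). It was not called in siNAE1 (-0.12 ± 0.10) or siUBE2M cells (-0.22 ± 0.10), but was called lower in both under scaling by totals (-0.25 and -0.28, adjusted p = 0.0447 and 0.0289). ATF4, the factor translated under PERK signalling, rose in siNAE1 (0.67 ± 0.06) and siUBE2M cells (0.65 ± 0.06). In siURM1 cells it changed by 0.16 ± 0.07 (adjusted p = 0.0506), which was called by DESeq2 (adjusted p = 0.0284), with no low-count filter (0.0355), 2 groups per fit (0.0291), a replicate block (0.0439) and without control replicate 2 (0.0264). The ATF4 targets DDIT3 (CHOP) and TRIB3 fell in all 3 knockdowns. DDIT3 changed by -1.82 ± 0.12, -0.91 ± 0.11 and -0.75 ± 0.12, and TRIB3 by -2.67 ± 0.08, -2.57 ± 0.07 and -2.14 ± 0.08, in siNAE1, siUBE2M and siURM1 cells.

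Other genes of the same machinery were counted from lists set out by role. Their counts are to be read beside the shares of all genes tested. Those were 27.6%, 22.7% and 20.8% higher and 27.1%, 22.6% and 20.8% lower in siNAE1, siUBE2M and siURM1 cells. Of 8 ER J-proteins, which deliver substrates to HSPA5, 2, 3 and 2 were higher and 3, 2 and 2 lower in siNAE1, siUBE2M and siURM1 cells. DNAJC25 was higher in all (1.20 ± 0.11, 0.88 ± 0.11 and 0.49 ± 0.13) and the disulfide reductase DNAJC10 was lower in all (-0.63 ± 0.06, -0.68 ± 0.06 and -0.51 ± 0.07). Of 15 tested oxidoreductases outside the member list 8 were higher and 4 lower in siNAE1 cells. The membrane-bound TMX1 rose in siNAE1 (0.82 ± 0.07) and fell in siURM1 cells (-0.65 ± 0.08), and PDIA2 fell in siNAE1 cells (-1.06 ± 0.18). In siUBE2M cells 5 were higher and 4 lower, and in siURM1 cells 3 and 3. Of 19 further ERAD genes 10, 6 and 7 were higher and 6, 5 and 4 lower. ERLIN2, a membrane scaffold of ERAD, fell in siNAE1 and siURM1 cells (-1.23 ± 0.08 and -1.25 ± 0.09) and changed less in siUBE2M cells (-0.21 ± 0.07). The ligase RNF5 rose in all 3 (0.75 ± 0.08, 0.74 ± 0.07 and 0.71 ± 0.08). The ligase RNF139 rose in siNAE1 (0.83 ± 0.09) and siURM1 cells (0.73 ± 0.09) and was not called in siUBE2M cells (-0.08 ± 0.09). Of 8 genes of the signal recognition particle and its receptor, which bring ribosomes to the translocon, 2, 1 and 0 were higher and 2, 5 and 5 lower by edgeR. In siUBE2M cells, the group in which SEC61B fell, the receptor subunit SRPRB fell from 124, 137 and 129 to 56.1, 54.8 and 62.0 CPM (-1.17 ± 0.07). Of 12 translocon-associated and signal peptidase genes 6, 4 and 6 were higher and 2, 3 and 2 lower. In all 3 knockdowns SSR2 was higher (0.59 ± 0.08, 0.57 ± 0.08 and 0.52 ± 0.08) and SSR3 lower (-0.49 ± 0.07, -0.38 ± 0.07 and -0.22 ± 0.08).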

How the data were processed

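Poly(A) messenger RNA of 11 HEK293T cultures was sequenced from strand-specific libraries. The authors cleaned reads with fastp, mapped them to GRCh38 by HISAT2 2.0.5 and counted fragments per gene with featureCounts 1.5.0-p3, and they deposited whole-number counts without normalization together with FPKM values computed from the counts and a gene length. Which annotation was used, and whether counting was stranded, is not given in the sources used here. The study's own tests used DESeq2 1.20.0. Total counts of 11733163 to 16321391 per library set the precision, and the biological coefficient of variation was 7.06%.

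The 41 members and all other lists were chosen with earlier results of these data known. Counts were tested in R 4.3.3 with edgeR 4.0.16 (filterByExpr, TMM, quasi-likelihood test) in a single fit of 4 groups over 18368 genes, with Benjamini-Hochberg adjustment over all of them and a threshold of 0.05. CPM values were scaled by TMM, and log2 CPM for role medians used a prior count of 2. Levels between genes were compared on FPKM only. Values in every library were given for the 2 members of each role with the largest called change in each knockdown (1 for the translocon), for members called alike in all 3 knockdowns, and for the 3 largest called differences between each pair of knockdowns, 21 members in all. HSP90B1, outside these rules, was given in every library as well. Of each other list the 2 genes with the largest called change per knockdown could be named, with NAE1, UBE2M, URM1, XBP1, ATF4, ATF6, ERN1, EIF2AK3 and DDIT3. The other lists were unfolded protein response regulators, ER J-proteins, other oxidoreductases, other proline isomerases, glycan quality control, further ERAD genes, the signal recognition particle, translocon-associated and signal peptidase genes, oligosaccharyltransferase and ER calcium genes. MARCHF6, listed under a symbol turned into a date, was matched by its gene identifier. Site sequences are from RefSeq promoter windows (GRCh38.p14). Protein features were not used here.

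The procedure was tested on simulated data. The alternatives were DESeq2 1.42.0, RLE size factors, library totals only, no low-count filter, a minimum of 10 counts in each library, 2 groups per fit, protein-coding genes only, a replicate block and leaving out each library. The closest pair of libraries differed in 26105 genes, so none was counted as a duplicate.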

Additional observations from a re-analysis of the deposited data

How the results depend on the processing

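The 28 counts and role medians were recomputed under 7 other settings and without each of the 11 libraries, and 10 counts against control also over protein-coding genes only. DESeq2, RLE size factors, no low-count filter, a minimum of 10 counts in each library and 2 groups per fit left the counts within 1.5 times, and the medians within 1 SD between replicates, of the values given, and protein-coding genes only left the 10 counts within 1.5 times. Scaling by library totals alone, which lowers all genes of a knockdown together, moved the medians in siNAE1 cells to 0.34 for chaperones, 0.12 for isomerases, 0.017 for ERAD and -0.30 for translocon genes. It moved them in siUBE2M cells to -0.082 for isomerases, -0.038 for ERAD and -0.39 for translocon genes, and in siURM1 cells to -0.28, -0.075, -0.11 and -0.32 for chaperones, isomerases, ERAD and translocon genes. It also made SEC63 a DEG in siNAE1 cells (log2 fold change -1.02), so that DEGs among the members were 1.

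Without single libraries the median in siNAE1 cells ranged from 0.40 to 0.52 for chaperones, 0.049 to 0.17 for ERAD and -0.25 to -0.10 for translocon genes, and in siURM1 cells from -0.014 to 0.071 for isomerases and -0.31 to -0.11 for translocon genes. Members called lower in siURM1 cells were 7 to 14, members lower in siNAE1 than in siURM1 cells 3 to 6, and members higher and lower in siUBE2M than in siURM1 cells 2 to 6 and 7 to 12. DEGs among the members in siNAE1 cells were 0 to 1, namely SDF2L1 without control replicate 2 (1.02) or siNAE1 replicate 1 (1.05).

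Of single genes, some small changes that were not called turned sign. The change of TXNDC5 ranged from -0.20 to 0.032 in siNAE1 and from -0.039 to 0.27 in siURM1 cells, and that of FKBP2 from -0.10 to 0.039 in siNAE1 and from -0.078 to 0.097 in siURM1 cells without single libraries. PDIA3 ranged from -0.074 to 0.073 in siUBE2M cells. In siURM1 cells FKBP2 was at -0.080 and SEC61B at -0.015 under scaling by library totals, and FKBP2 at -0.015 with a minimum of 10 counts in each library. The cause was not tested. Across 244 changes of named genes, DESeq2 ended 5 calls and made 1, no low-count filter ended 7 and made 2, library totals ended 14 and made 7, a minimum of 10 counts ended 1 and made 2, 2 groups per fit ended 2 and made 2, a replicate block ended 3 and made 2, and RLE size factors 0.

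The replicate numbers of the labels are not stated to mark a shared culture or day. Deviations from the group means correlated from -0.066 to 0.079 between 15 pairs of libraries with the same number and from -0.101 to 0.073 between 30 other pairs, and 3 of 11 libraries correlated best with a library of their own number. With the replicate number as a block, 21 members were higher and 8 lower in siNAE1, 8 and 19 in siUBE2M, and 9 and 12 in siURM1 cells.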

Other observations

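Glycoprotein synthesis and quality control, calcium handling and proline isomerisation in the ER were counted as well, beside shares of all genes tested of 27.6%, 22.7% and 20.8% called higher and 27.1%, 22.6% and 20.8% called lower in siNAE1, siUBE2M and siURM1 cells. Of 12 oligosaccharyltransferase genes, which attach glycans to proteins entering the ER, 6, 3 and 5 were called higher and 1, 5 and 4 lower in siNAE1, siUBE2M and siURM1 cells by edgeR. The catalytic subunit STT3A fell in all 3 (-0.29 ± 0.06, -0.40 ± 0.06 and -0.22 ± 0.06), and MAGT1, an oxidoreductase subunit, fell in siURM1 cells (-0.90 ± 0.07, adjusted p = 2.81e-12). Of 8 genes of glycan trimming and lectin quality control 3, 2 and 3 were higher and 2, 2 and 2 lower. Glucosidase I (MOGS) rose in all 3 knockdowns (0.81 ± 0.07, 0.47 ± 0.07 and 0.50 ± 0.08) while CLGN, a calnexin relative, fell in all 3 (to 0.501, 0.704 and 0.546 of its control level), and ERLEC1, an ERAD lectin, fell in siURM1 cells (-0.76 ± 0.10).

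Of 8 ER calcium genes 3, 3 and 1 were higher and 3, 1 and 1 lower, with the calcium-binding proteins RCN1 lower in all 3 knockdowns (-0.82 ± 0.07, -0.44 ± 0.07 and -0.39 ± 0.08) and RCN2 higher in siNAE1 and siUBE2M cells (0.51 ± 0.06 and 0.43 ± 0.06). Of 5 further proline isomerases 1 was higher and 2, 1 and 1 were lower. FKBP10, which acts on collagen as FKBP14 does, fell in siUBE2M (-0.68 ± 0.06, adjusted p = 7.23e-11) and siURM1 cells (-0.65 ± 0.07), where FKBP14 was not called.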
